A study of Homo sapiens with 8 samples.

Results

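Oxidative phosphorylation is the mitochondrial pathway in which complexes I to IV pass electrons from NADH and succinate to oxygen and complex V, the ATP synthase, uses the resulting proton gradient to make ATP. Its subunits come mostly from nuclear genes, and each complex needs assembly factors that insert heme, copper, flavin or iron-sulfur clusters. Activated and transformed T cells use it together with glycolysis. The genes described here are those whose symbol in the array's annotation starts with NDUF (complex I), SDH followed by A to D (complex II), UQCR (complex III), COX followed by a digit (complex IV) or ATP5 (complex V). Of 101 such genes on the array, 88 had a probe with a detection p-value under 0.01 on at least 2 of the 8 arrays, and the brightest such probe stood for each gene. They are 88 of 10183 features tested, of which 8509 are named genes.

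The cells were Karpas299, an established anaplastic large cell lymphoma line of T cell origin that carries the receptor CD30 (gene TNFRSF8), a member of the tumour necrosis factor receptor family. After 16 h of preculture, and for 8 h in the same medium, cells received CD153-Fc (the CD30 ligand fused to an Fc part), T104 (an agonistic antibody to CD30) or both, each protein at 10 µg/ml, while the remaining cells stayed untreated. Each of the 4 groups had biological duplicates, so 8 RNA samples were put on Illumina HumanHT-12 v3 arrays. No group with an Fc protein or an isotype antibody alone is analysed here, 1 cell line stands for all groups, and time after treatment was not varied.

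Values are log2 intensities after background correction and quantile normalization, and a change is the difference between 2 group means on that scale, given with its standard error (SE) from a limma model of 2 arrays per group. A lower value in these bulk RNA samples cannot tell fewer cells with the transcript apart from less transcript per cell. A gene was called changed at a Benjamini-Hochberg adjusted p under 0.05 over all 10183 features. Levels are not compared between genes, since a probe's brightness also depends on its sequence, and brightness serves only to choose the probe of a gene and some of the genes named.

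Mean unprocessed intensity per array lay between 722 and 850, and between 10713 and 12967 of 48797 probes were detected. Of 9 T cell lymphoma markers on the array 8 were tested and 6 were detected on all 8 arrays, while the tested probe of TNFRSF8 itself was detected on 2 arrays. None of 5 B cell and none of 6 epithelial and stromal markers was detected on 2 arrays, and 2 of 7 myeloid markers (CD68 and CSF1R) were detected on all 8.

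The untreated duplicates differed more than the treated ones, which touches every comparison with untreated cells. Over the oxidative phosphorylation genes the SD of the difference between replicates was 0.17 log2 with CD153-Fc, 0.20 with T104, 0.21 with both and 0.38 in untreated cells. Untreated replicate 1 was the highest or the lowest of the 8 arrays for 51 of the 88 genes (58.0%, against 55.6% of all features), and untreated replicate 2 for 17 (19.3%, against 28.1%). Counts of calls against untreated cells, and the T104 differences of genes described array by array, are therefore given also without one or the other of these arrays where that moves them by over 1.5 times.

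Most of these genes were expressed. Of the 88, 85 were detected on all 8 arrays (96.6%, against 83.4% of all features), and the others were NDUFS1 on 6, COX20 on 5 and NDUFB1 on 4 arrays. These 3 stand nearest to the detection limit on the inside. Of the 13 genes left out, 12 were detected on no array and COX6B2 on 1. Complex IV subunits known from heart and skeletal muscle, testis or lung made up 6 of them (COX4I2, COX6A2, COX6B2, COX7A1, COX7B2 and COX8C), and the assembly factor COX18 was another from this complex. The others were NDUFA5, NDUFB4, NDUFC2 and NDUFS6 of complex I and the pseudogenes SDHAP3 and SDHAP4. The form of each subunit known from most tissues was detected where it has a tissue-specific partner: COX4I1, COX6A1, COX6B1, COX7A2, COX7B and COX8A were each detected on all 8 arrays.

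The starts of many of these genes carry motifs for NRF1 and for ETS factors such as GABP, both known as regulators of genes for mitochondrial proteins. RefSeq promoter sequences of GRCh38.p14, from 250 bases before to 50 after the gene start, matched 73 of the 88 genes. The NRF1 core GCGCANGCG, searched on both strands, was in 23 of them (31.5%, against 16.8% of 7078 promoters of the named genes tested and 8.05% of 27305 in the table). The ETS core CCGGAAGT was in 13 (17.8%, against 9.99% and 4.44%), and either motif was in 33 (45.2%, against 24.9% and 11.7%). The 3 promoters below are those of the genes with the lowest adjusted p-values for a decrease with T104, SDHAF3 and NDUFB10, and of COX17, whose 6 treated arrays all lay above its untreated ones. Capitals mark the NRF1 and ETS cores, on either strand.
SDHAF3: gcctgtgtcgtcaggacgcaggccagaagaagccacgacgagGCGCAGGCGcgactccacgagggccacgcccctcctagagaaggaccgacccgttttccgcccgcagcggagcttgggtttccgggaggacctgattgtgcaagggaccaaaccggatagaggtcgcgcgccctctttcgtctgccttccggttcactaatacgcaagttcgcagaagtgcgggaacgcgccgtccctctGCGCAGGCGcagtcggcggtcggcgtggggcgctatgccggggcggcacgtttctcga
NDUFB10: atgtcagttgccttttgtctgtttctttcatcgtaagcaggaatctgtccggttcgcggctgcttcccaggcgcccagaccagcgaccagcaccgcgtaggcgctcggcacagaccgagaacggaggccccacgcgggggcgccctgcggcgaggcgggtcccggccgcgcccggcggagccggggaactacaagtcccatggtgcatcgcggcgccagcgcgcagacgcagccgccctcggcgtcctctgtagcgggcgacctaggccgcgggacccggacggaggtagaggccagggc
COX17: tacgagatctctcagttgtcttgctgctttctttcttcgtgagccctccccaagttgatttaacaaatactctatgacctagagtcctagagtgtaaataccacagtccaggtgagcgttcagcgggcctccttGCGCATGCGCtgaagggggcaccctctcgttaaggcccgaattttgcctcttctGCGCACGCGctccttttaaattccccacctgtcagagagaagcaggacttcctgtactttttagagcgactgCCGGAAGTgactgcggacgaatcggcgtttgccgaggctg
The SDHAF3 promoter lies at chr7:97117448-97117747 on the plus strand, that of NDUFB10 at chr16:1959288-1959587 on the plus strand and that of COX17 at chr3:119677357-119677656 on the minus strand. SDHAF3 holds 2 NRF1 cores, NDUFB10 holds neither motif, and COX17 holds 2 NRF1 cores and 1 ETS core. A match describes letters in a window and does not show that a factor binds there.

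The medians of these genes lay near those of all features. Against untreated cells the median difference of the 88 genes was -0.016 log2 after CD153-Fc, -0.018 after T104 and 0.014 after both, beside -0.0010, -0.020 and -0.018 for all features. The SD over the genes was 0.27 after CD153-Fc, 0.26 after T104 and 0.24 after both, beside 0.34, 0.48 and 0.43 for all features. The medians of the 5 complexes lay between -0.20 and 0.051 log2, with complex II at the low end with each agent (-0.12 after CD153-Fc, -0.18 after T104 and -0.20 after both).

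**Figure D1:**
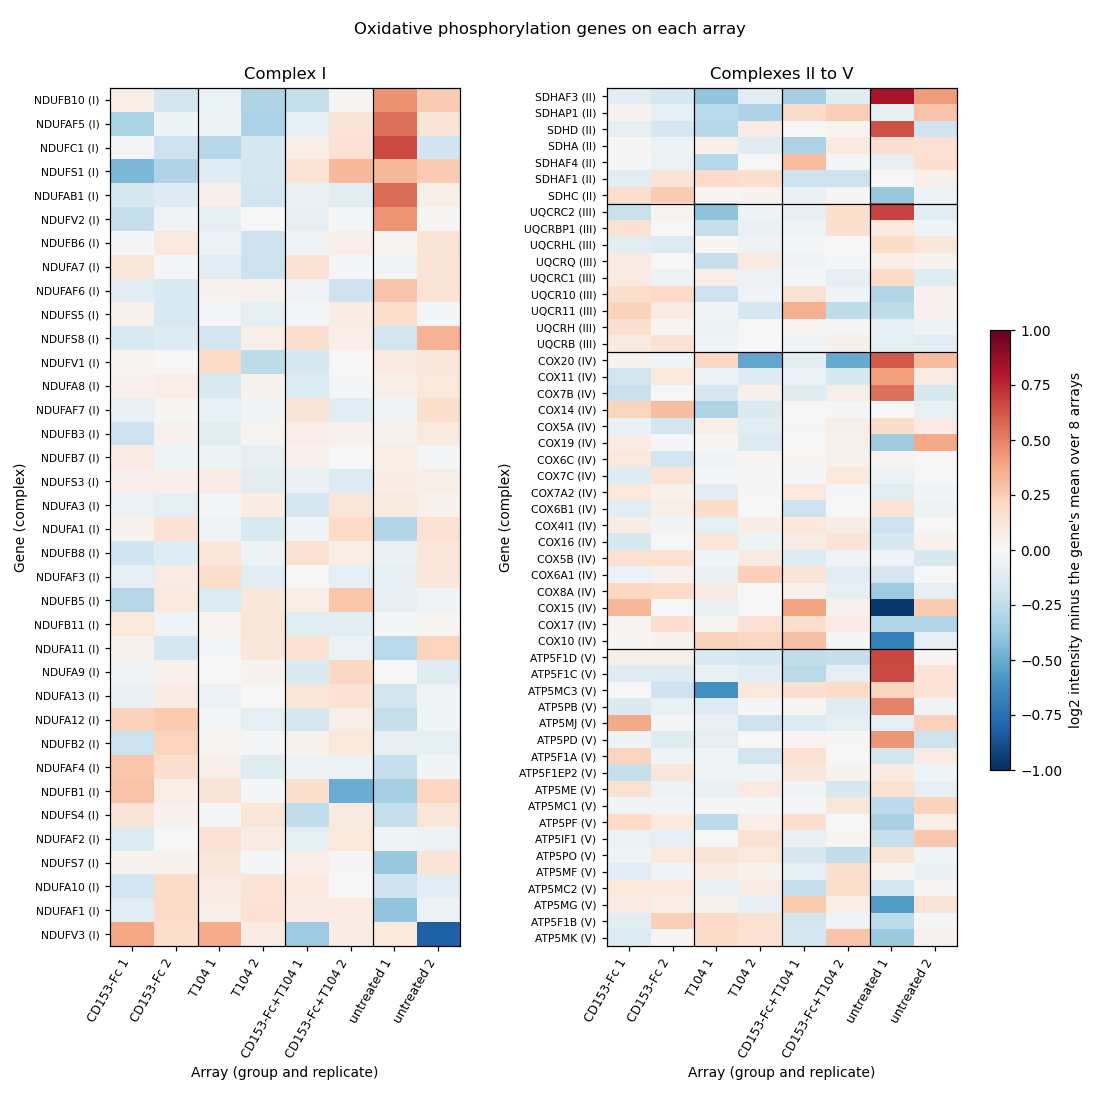
Colour shows the log2 intensity of each of the 88 genes on each array minus that gene's mean over the 8 arrays, with complex I on the left, complexes II to V on the right and the genes of a complex ordered by their difference with T104. The darkest colours stand in the column of untreated replicate 1, which is the highest or lowest array for 51 genes.

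With CD153-Fc, 0 of the 88 genes were called by limma (background 1.37% of all features), and 16 had an unadjusted p under 0.05 (18.2%, background 15.0%). With T104, 2 genes were called and both fell, SDHAF3 and NDUFB10 (2.27%, background 10.5% in either direction and 5.41% lower), and 12 had an unadjusted p under 0.05 (13.6%, background 25.7%). With both, SDHAF3 was the 1 gene called (1.14%, background 6.67%, of which 2.85% lower), and 9 had an unadjusted p under 0.05 (10.2%, background 22.6%). These 3 comparisons share the untreated arrays, so their values are not independent of each other.

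For most of these genes the change was bounded under the spread that the model shares over the 4 groups. The untreated duplicates differed more than the treated ones, so intervals against untreated cells may be too narrow. The width of an interval follows the SE, whose median was 0.155 for these genes and 0.185 for all features. The 95% interval of the difference lay within 2-fold in either direction for 83 of 88 genes with CD153-Fc (94.3%, against 89.7% of all features), for 83 with T104 (94.3%, against 82.9%) and for 85 with both (96.6%, against 84.9%). Treated and untreated arrays did not overlap for 34 genes with CD153-Fc (38.6%, background 41.0%), for 38 with T104 (43.2%, background 51.4%) and for 31 with both (35.2%, background 47.2%).

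**Figure D2:**
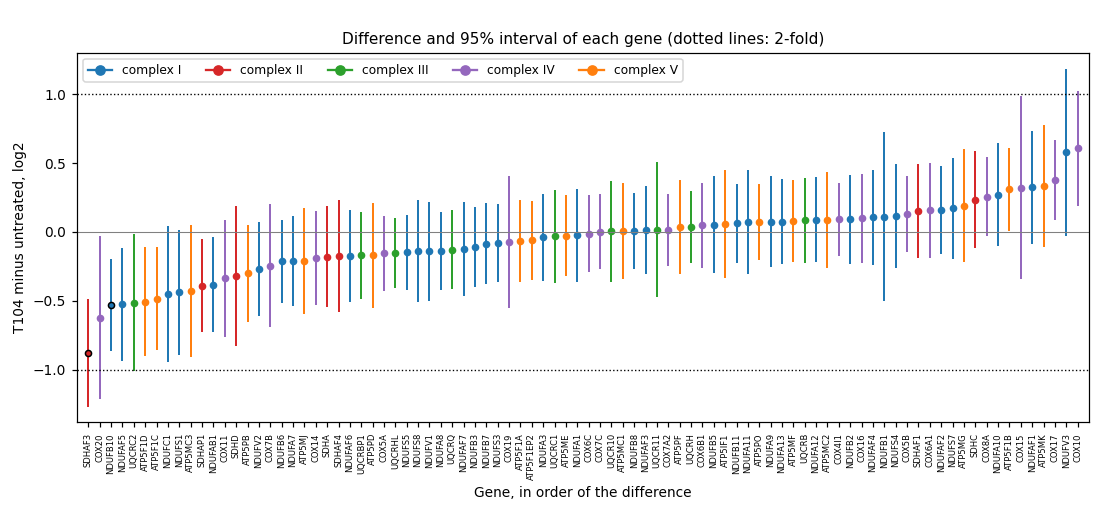
Each point is the difference of log2 intensity, T104 minus untreated, of 1 of the 88 genes with its 95% interval, in order of the difference and coloured by complex, with dotted lines at 2-fold. For 83 genes the interval stays between the dotted lines, and the circled points are SDHAF3 and NDUFB10.

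Against untreated cells the count depended on which untreated array was used. Without untreated replicate 1 it was 1 gene with CD153-Fc (NDUFV3, higher by 1.10 log2), 3 with T104 (SDHAF3 and SDHAP1 lower by 0.68 and 0.57, NDUFV3 higher by 1.04) and 1 with both (SDHAF3, lower by 0.66), where 2.63%, 13.5% and 7.94% of all features were called. The NDUFV3 values rest on that choice, since without untreated replicate 2 they were 0.18 and 0.12. Without untreated replicate 2 the count was 26 genes after CD153-Fc, 22 after T104 and 22 after both, where 25.8%, 33.6% and 32.8% of all features were called. Fits that leave out an untreated array take the spread of the remaining one from the other groups. SDHAF3 is the 1 gene called with T104, and also with both, whichever untreated array was left out or when neither was.

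Complex II, succinate dehydrogenase, oxidises succinate to fumarate and feeds its electrons into the chain. Its assembly factor SDHAF3, which helps mature the iron-sulfur subunit SDHB, had log2 intensities of 10.72 and 10.66 after CD153-Fc, 10.44 and 10.73 after T104, 10.50 and 10.71 after both, and 11.66 and 11.26 in untreated cells. All 6 treated arrays lay below both untreated ones. SDHAF3 fell by 0.88 with T104 (SE 0.18, adjusted p = 0.00681) and by 0.86 with both (SE 0.18, adjusted p = 0.0117), and with CD153-Fc the difference was -0.77 (SE 0.18, adjusted p = 0.0543), which missed the threshold. In folds, T104 gave a level 1.84 times lower than untreated cells. Between the treated groups its differences were small: T104 minus CD153-Fc was -0.11 (95% interval -0.49 to 0.28), and both minus T104 was 0.019 (95% interval -0.36 to 0.40).

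A second SDHAF3 probe gave smaller values. It was detected on all 8 arrays, and differed from untreated cells by -0.024 with CD153-Fc (adjusted p = 0.959), by -0.50 with T104 (adjusted p = 0.0916) and by -0.15 with both (adjusted p = 0.637). When all kept probes of a gene were averaged, SDHAF3 differed by -0.69 with T104 (adjusted p = 0.00976) and by -0.51 with both (adjusted p = 0.0577), so that the call with both was lost. The decrease with T104 passed in 8 of 9 other processing settings, all but the fit of the 2 groups alone (adjusted p = 0.0577), and in 7 of 8 fits without 1 array, all but the one without T104 replicate 1 (-0.73, adjusted p = 0.118). The decrease with both passed in 7 of 9 settings and in 6 of 8 fits without 1 array, and was lost without either replicate of that group (adjusted p of 0.151 and 0.0641).

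The catalytic and membrane subunits of complex II were not called with any agent. SDHA, the flavoprotein that binds succinate, had 11.06 and 11.00 after CD153-Fc, 11.12 and 10.93 after T104, 10.74 and 11.15 after both, and 11.21 and 11.20 in untreated cells. Each treated array was below both untreated ones, by little, and the differences were -0.17, -0.18 and -0.26 (adjusted p of 0.644, 0.533 and 0.371). Another SDHA probe, detected on all 8 arrays, gave 0.010, 0.029 and -0.17 (limma adjusted p of at least 0.579). The membrane anchor SDHC lay on the other side, at 10.73 and 10.81 after CD153-Fc, 10.58 and 10.59 after T104, 10.49 and 10.57 after both, and 10.18 and 10.51 in untreated cells, with overlap only for the cells given both. Its difference with T104 was 0.23 (adjusted p = 0.382), against 0.067 without untreated replicate 1 and 0.40 without replicate 2. The other anchor, SDHD, had between 10.25 and 10.62 on the 6 treated arrays, against 11.17 and 10.34 in the untreated duplicates, so that the untreated arrays enclosed the treated ones save T104 replicate 1. Its T104 difference of -0.32 was 0.098 without untreated replicate 1 and -0.74 without replicate 2, a change of sign. SDHB, the iron-sulfur subunit that SDHAF3 serves, had no probe among those named here.

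The remaining complex II genes varied without a common direction. SDHAF1, another factor for the iron-sulfur subunit, differed by -0.014 after CD153-Fc, 0.15 after T104 and -0.24 after both (adjusted p of 0.974, 0.564 and 0.381). SDHAF4, which acts on flavin-bound SDHA, differed by -0.076, -0.18 and 0.11 in the same order (adjusted p of at least 0.586). SDHAP1, a pseudogene of SDHA whose probe may share transcripts with its parent gene, had 11.93 and 11.80 after CD153-Fc, 11.62 and 11.58 after T104, 12.07 and 12.13 after both, and 11.80 and 12.17 in untreated cells. The T104 arrays were its lowest. Its T104 difference of -0.39 was -0.57 without untreated replicate 1 and -0.21 without replicate 2. Both minus T104 was 0.50 (SE 0.15, adjusted p = 0.895). Other SDHAP1 probes gave T104 differences of 0.053, 0.099 and -0.12 (limma adjusted p of at least 0.781).

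**Figure D3:**
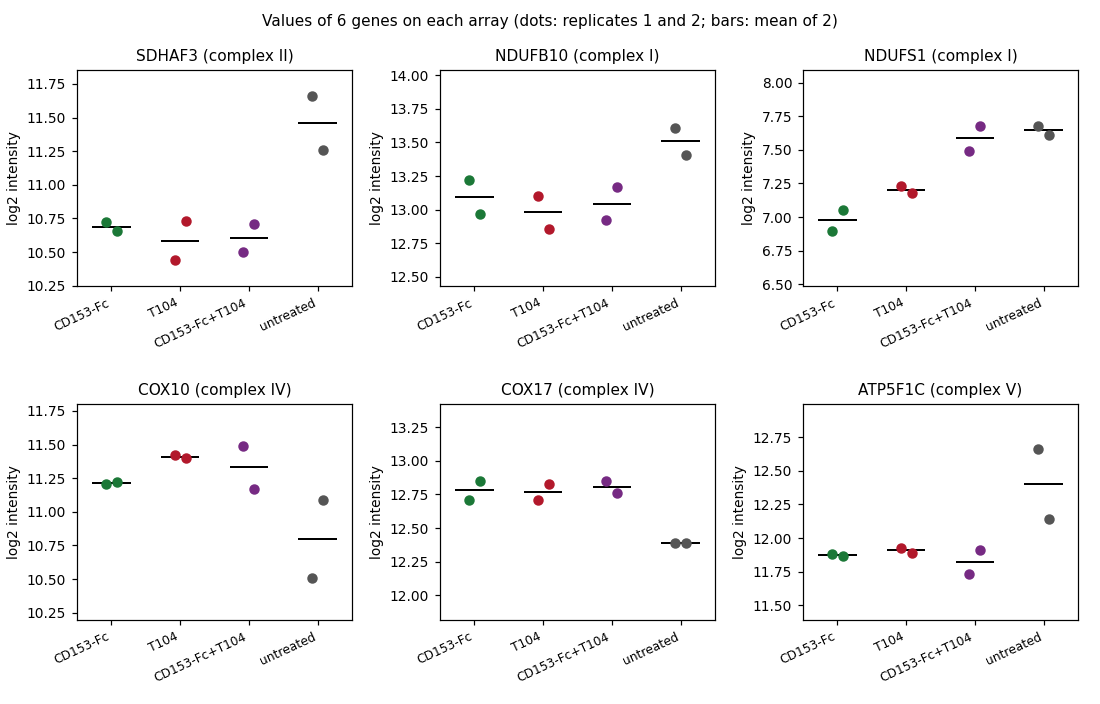
Log2 intensity of 6 genes on each array, with 1 dot per replicate and a bar at the mean of 2, for CD153-Fc, T104, both and untreated cells. SDHAF3 and NDUFB10 lie lower and COX17 higher on all 6 treated arrays than on the untreated ones, and the 2 untreated dots stand far apart for COX10 and ATP5F1C.

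Complex I, NADH dehydrogenase, was represented by 36 genes, of which 6 encode core subunits, 23 accessory subunits and 7 assembly factors. Its median difference was -0.020 after CD153-Fc, -0.031 after T104 and -0.011 after both. NDUFB10, an accessory subunit of the membrane arm, had 13.22 and 12.97 after CD153-Fc, 13.10 and 12.86 after T104, 12.92 and 13.17 after both, and 13.61 and 13.41 in untreated cells. All 6 treated arrays lay below both untreated ones. NDUFB10 fell by 0.53 with T104 (SE 0.15, adjusted p = 0.0425), and differed by -0.42 with CD153-Fc (adjusted p = 0.228) and by -0.46 with both (adjusted p = 0.0929). This call stands close to the threshold: it passed in 4 of 9 other processing settings (adjusted p of 0.0401 to 0.121) and in 1 of 8 fits without 1 array (0.00247 to 0.319).

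Among the core subunits, NDUFS1, the large iron-sulfur protein of the NADH-oxidising part, showed the lowest complex I value with CD153-Fc. Its log2 intensities were 6.90 and 7.05 after CD153-Fc, 7.23 and 7.18 after T104, 7.49 and 7.68 after both, and 7.68 and 7.61 in untreated cells. The arrays with either single agent lay below those of untreated cells, while those with both overlapped them. The difference was -0.67 with CD153-Fc (SE 0.21, adjusted p = 0.147), -0.44 with T104 (adjusted p = 0.201) and -0.059 with both (adjusted p = 0.893). Both minus CD153-Fc was 0.61 (adjusted p = 0.426), and the probe was near its detection limit, detected on 1 of 2 arrays with CD153-Fc, 1 of 2 with T104, and on both arrays of the other groups.

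Of the other complex I genes, NDUFV3, an accessory subunit beside the NADH-binding site, had 8.48 and 8.27 after CD153-Fc, 8.47 and 8.17 after T104, 7.73 and 8.17 after both, and 8.20 and 7.28 in untreated cells. Untreated replicate 2 was its lowest array, and the differences of 0.64, 0.58 and 0.21 had adjusted p-values of 0.306, 0.208 and 0.685. The T104 difference was 1.04 without untreated replicate 1 and 0.12 without replicate 2. NDUFAF1, an early assembly factor, had the highest difference in complex I with both (0.31, adjusted p = 0.354). NDUFS5, an accessory subunit, had between 14.08 and 14.30 on the treated arrays and 14.40 and 14.22 on the untreated ones. NDUFB1, another accessory subunit, was not detected on any T104 array or any array with both, so that no fold is given. It was detected on both CD153-Fc and both untreated arrays. Its log2 intensities overlapped between all groups. They were 7.06 and 6.91 after T104 and 7.09 and 6.43 after both. They were 7.21 and 6.99 after CD153-Fc and 6.6 and 7.14 in untreated cells. The lowest log2 value of a detected probe was 6.48 on untreated replicate 1, against 7.08 and 7.38 on the T104 arrays. Detection therefore cannot show a lower NDUFB1 level here. Of the 6 core subunits, 5 after CD153-Fc, 5 after T104 and 4 after both lay below untreated cells without any call, with medians of -0.16, -0.14 and -0.12 beside the -0.0010, -0.020 and -0.018 of all features.

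Complex III, which passes electrons from ubiquinol to cytochrome c, had 7 subunits and 2 copies among the genes. None was called with any agent, and 1, 1 and 0 had an unadjusted limma p under 0.05 with CD153-Fc, T104 and both. UQCRC2, a core protein, had 11.33 and 11.58 after CD153-Fc, 11.15 and 11.50 after T104, 11.47 and 11.71 after both, and 12.23 and 11.44 in untreated cells. Its differences of -0.38, -0.51 and -0.24 (adjusted p of 0.452, 0.176 and 0.550) rest on untreated replicate 1, since untreated replicate 2 lies among the treated arrays, and without replicate 1 they were 0.013, -0.12 and 0.15. UQCR10, a small subunit, lay highest in the complex with CD153-Fc and with both (0.31 and 0.18, adjusted p of 0.393 and 0.536), and UQCRB with T104 (0.086, adjusted p = 0.742). The other UQCR10 probes were split in sign. With CD153-Fc, T104 and both they gave 0.20, 0.054 and 0.16, and -0.30, -0.34 and -0.53. UQCRQ, a small subunit, differed by -0.013, -0.13 and -0.072 with CD153-Fc, T104 and both, and UQCR11, also a small subunit, by 0.27, 0.016 and 0.16. UQCRBP1 and UQCRHL resemble UQCRB and UQCRH in sequence, and probes of such pairs may share transcripts.

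Complex IV, cytochrome c oxidase, was represented by 10 subunits and 8 assembly factors. None was called with any agent, and 3 had an unadjusted limma p under 0.05 in each comparison with untreated cells. The copper chaperone COX17 had 12.71 and 12.85 after CD153-Fc, 12.71 and 12.83 after T104, 12.85 and 12.76 after both, and 12.39 and 12.39 in untreated cells. All 6 treated arrays lay above both untreated ones, which were equal to the second decimal. The differences were 0.39 (SE 0.13, adjusted p = 0.188), 0.38 (adjusted p = 0.0874) and 0.41 (adjusted p = 0.0821), all short of the threshold. Each was the same to the second decimal without untreated replicate 1 or without replicate 2. COX17 is described here because its values had been seen.

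Heme A of complex IV is made by COX10 and COX15 in turn. COX10 had 11.21 and 11.22 after CD153-Fc, 11.42 and 11.40 after T104, 11.49 and 11.17 after both, and 10.51 and 11.09 in untreated cells. Every treated array lay above both untreated ones, and the difference with T104 was 0.61 (SE 0.19, adjusted p = 0.0597). It was 0.32 without untreated replicate 1 and 0.90 without replicate 2. COX15 had 9.63 and 9.29 after CD153-Fc, 9.23 and 9.30 after T104, 9.69 and 9.34 after both, and 8.33 and 9.56 in untreated cells. Its untreated duplicates lay 1.23 log2 apart, replicate 2 stood among the treated arrays, and the differences of 0.52, 0.32 and 0.57 had adjusted p-values of 0.443, 0.542 and 0.287. Without untreated replicate 1 they turned to -0.097, -0.29 and -0.043.

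COX20, which chaperones the subunit COX2, had 7.18 and 7.12 after CD153-Fc, 7.35 and 6.63 after T104, 7.03 and 6.64 after both, and 7.76 and 7.46 in untreated cells. It lay below untreated cells on every treated array, without a call. It was not detected on either array with both, so that no fold is given there (limma adjusted p = 0.113). The lowest log2 values of a detected probe on those arrays were 7.42 and 7.44, close to the 7.46 of untreated replicate 2. COX4I1, a nuclear-encoded subunit, differed by 0.12, 0.091 and 0.18 with CD153-Fc, T104 and both (adjusted p of at least 0.378). Over the 10 subunits the medians were 0.051, 0.032 and 0.046, and 6, 7 and 7 of them lay above untreated cells, with 0 called.

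Complex V, the ATP synthase, was represented by 16 subunits, the inhibitor ATP5IF1 and 1 copy. None was called with any agent, and 1, 3 and 2 had an unadjusted limma p under 0.05 with CD153-Fc, T104 and both. ATP5F1C, the rotating gamma subunit of the central stalk, had 11.88 and 11.87 after CD153-Fc, 11.93 and 11.89 after T104, 11.73 and 11.91 after both, and 12.66 and 12.14 in untreated cells. Every treated array lay below both untreated ones, and the differences were -0.52 (adjusted p = 0.175), -0.48 (adjusted p = 0.0937) and -0.58 (adjusted p = 0.0646). Without untreated replicate 1 they were -0.26, -0.22 and -0.32, and without replicate 2 they were -0.78, -0.74 and -0.84. ATP5F1D, the delta subunit of the same stalk, had 12.41 and 12.41 after CD153-Fc, 12.20 and 12.18 after T104, 12.11 and 12.12 after both, and 13.02 and 12.37 in untreated cells. Its arrays with T104 and with both lay below the untreated ones, and its differences were -0.29, -0.51 and -0.58 (adjusted p of 0.473, 0.0963 and 0.0744). These rest largely on untreated replicate 1, without which they were 0.033, -0.19 and -0.26, the first with its sign turned. Another ATP5F1D probe, detected on all 8 arrays, gave smaller values of 0.093, -0.22 and -0.053 (limma adjusted p of at least 0.448).

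The catalytic beta subunit ATP5F1B differed by 0.20, 0.31 and 0.028 with CD153-Fc, T104 and both (adjusted p of at least 0.169). ATP5MG and ATP5MK, small membrane subunits, had the highest values of the complex, with 0.29 and 0.38 for ATP5MG with CD153-Fc and both and 0.33 for ATP5MK with T104 (adjusted p of at least 0.254). For ATP5MG the treated arrays lay between 13.10 and 13.44, against 12.62 in untreated replicate 1 and 13.31 in untreated replicate 2, so that the difference rests on replicate 1. Another ATP5MG probe, detected on all 8 arrays, went the other way, at -0.29, -0.46 and -0.29 with CD153-Fc, T104 and both. ATP5MC3, which encodes the ring subunit c as ATP5MC1 and ATP5MC2 do, differed by -0.28, -0.43 and -0.0058. ATP5MC1 differed by -0.016, 0.0060 and 0.061 and ATP5MC2 by 0.18, 0.088 and 0.049. Other probes of these 2 genes gave other values. For ATP5MC2, a probe detected on 4 arrays gave -0.0047, -0.93 and -0.16 (limma adjusted p with T104 = 0.0334). For ATP5MC1, a probe detected on all 8 gave 0.62, 0.42 and 0.49 (limma adjusted p of at least 0.328). ATP5IF1, which blocks reverse action of the synthase, differed by -0.094, 0.057 and -0.050 (adjusted p of at least 0.831). Its other probe, detected on 6 arrays, gave -0.25, -0.54 and -0.44 (limma adjusted p of at least 0.153).

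**Figure D4:**
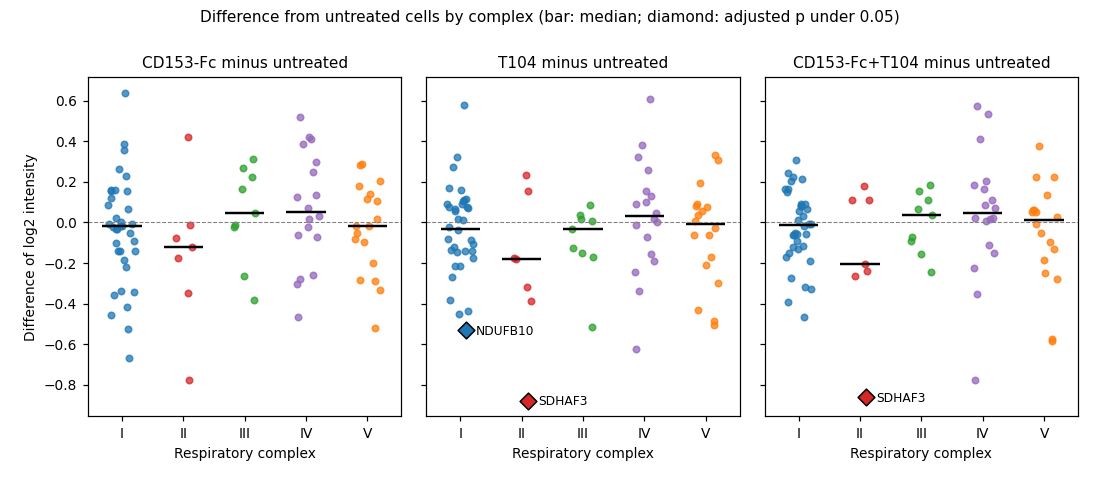
Each point is the difference of log2 intensity from untreated cells of 1 gene, by complex, in a panel each for CD153-Fc, T104 and both, with a bar at the median of a complex and a diamond for an adjusted p under 0.05. The medians stay between -0.20 and 0.051, and the diamonds are SDHAF3 and NDUFB10 with T104 and SDHAF3 with both.

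By kind of protein, the 65 subunits had median differences of -0.0096 after CD153-Fc, 0.0025 after T104 and 0.013 after both, and the 18 assembly factors -0.017, -0.030 and 0.014. Of the subunits 0, 1 and 0 were called (1.54% with T104). Of the assembly factors 0, 1 and 1 were called, each time SDHAF3 (5.56% with T104 and with both). The background was 1.37%, 10.5% and 6.67% of all features. Promoters with an NRF1 core belonged to genes with medians of -0.018, -0.026 and -0.089 with CD153-Fc, T104 and both, beside -0.0075, 0.0078 and 0.0086 for those without. The 13 genes with an ETS core had medians of 0.16, 0.076 and 0.16, beside -0.016, -0.025 and -0.011 for the 60 without. Of the 13, 0 were called, beside the same background, and the difference in medians was not tested. They include COX10, COX15 and SDHD, whose values moved with the untreated array used. Medians by motif without either untreated array are not given.

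The agents were also set against each other. T104 minus CD153-Fc gave 0 called genes among the 88 (background 0.609%) and 1 with an unadjusted p under 0.05 (background 8.31%), which was COX14, a factor for the synthesis of COX1, at -0.49 (SE 0.15, adjusted p = 0.284). Both minus CD153-Fc gave 0 called (background 0.187%) and 1 unadjusted (NDUFS1, background 8.03%), and both minus T104 gave 0 called (background 0.0%) and 3 unadjusted (ATP5PO, SDHAF1 and SDHAP1, background 4.1%). The 95% intervals lay within 2-fold for 88, 86 and 88 of the 88 genes in these comparisons, beside 93.9%, 94.3% and 96.5% of all features. The interaction, which subtracts the 2 single responses from the response to both agents together, gave 0 called genes (background 1.34%) and 9 unadjusted (background 12.3%), the lowest p being that of NDUFS1 at 1.05 log2 (SE 0.29, adjusted p = 0.121). Its interval lay within 2-fold for 75 genes (85.2%, against 69.1% of all features). An F test across the 4 groups called SDHAF3 alone (adjusted p = 0.0195, background 5.96%), and 11 genes had an unadjusted p under 0.05 (background 18.8%).

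Other genes of the pathway and of mitochondria were taken from lists outside the symbol rule. None of them was called with CD153-Fc. Of 31 further oxidative phosphorylation genes, 3 fell with T104 (9.68%, background 10.5% in either direction and 5.41% lower) and 0 were called with both (background 6.67%). The first was TTC19, which is needed for complex III, with 10.54 and 10.31 after CD153-Fc, 9.70 and 9.94 after T104, 10.19 and 10.17 after both, and 10.89 and 10.47 in untreated cells. It fell by 0.85 with T104 (SE 0.18, adjusted p = 0.00872), and its T104 arrays were the lowest of all. NUBPL, an iron-sulfur factor of complex I, fell by 0.57 (adjusted p = 0.0467), and TMEM70, an ATP synthase assembly factor named because its value had been seen, fell by 0.53 (adjusted p = 0.0492). Both stood close to the threshold, and their calls were kept in 5 and 4 of 9 other settings.

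Of 16 regulators of mitochondrial genes 2 were called with T104 (12.5%, against 10.5% of all features) and 1 with both (6.25%, against 6.67%). GABPB1, a subunit of the ETS factor GABP, had 10.25 and 10.05 after CD153-Fc, 10.67 and 10.57 after T104, 10.19 and 10.50 after both, and 9.12 and 9.90 in untreated cells. All treated arrays lay above both untreated ones, and the untreated duplicates stood far apart. GABPB1 rose by 1.11 with T104 (SE 0.22, adjusted p = 0.00679) and by 0.84 with both (adjusted p = 0.0436), the second of these kept in 4 of 9 other settings and 1 of 8 fits without 1 array. Without untreated replicate 1 the rises were 0.73 and 0.45, and without replicate 2 both were larger. The related subunit GABPB2 fell by 0.48 with T104 (adjusted p = 0.0375), a call kept in 5 of 9 settings and 4 of 8 fits without 1 array. Among 18 genes of pyruvate dehydrogenase and the citric acid cycle, 1 was called with T104 (5.56%, background 10.5% in either direction and 5.41% lower). It was PDP1, a pyruvate dehydrogenase phosphatase, called lower (adjusted p = 0.0445). PDP1 was detected on no T104 array and on 1 of 2 untreated arrays, so that no fold is given. The call was kept in 1 of 8 fits without 1 array. Among 26 import and inner membrane genes, 1 was called with both (3.85%, against 6.67% of all features). It was TIMM17B, a translocase subunit, which rose by 0.68 (adjusted p = 0.0430). Its call was kept in 5 of 9 settings and 1 of 8 fits without 1 array, with values from 0.41 to 0.96.

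Of 76 mitochondrial ribosomal proteins, 2 rose and 2 fell with T104 (5.26% in all, below the 10.5% of all features). MRPL39 had 11.77 and 12.12 after CD153-Fc, 12.31 and 12.32 after T104, 11.98 and 12.16 after both, and 11.52 and 11.49 in untreated cells, so that all treated arrays lay above the untreated ones. It rose by 0.81 with T104 (SE 0.15, adjusted p = 0.00483), kept in 9 of 9 other settings, and by 0.57 with both (adjusted p = 0.0449), kept in 5 of 9 settings and 2 of 8 fits without 1 array. MRPL46 rose by 0.77 with T104 (adjusted p = 0.00726), while MRPS25 fell by 0.72 (adjusted p = 0.0195) and MRPS34 by 0.67 (adjusted p = 0.0146). With both, MRPL39 rose and MRPS34 fell (by 0.69, adjusted p = 0.0175), which is 2.63% of the 76 against 6.67% of all features. The median of the 76 was -0.069 after CD153-Fc, -0.076 after T104 and -0.098 after both, beside -0.0010, -0.020 and -0.018 for all features. No probe with a name here stood for a gene of the mitochondrial genome, so the subunits it encodes are not described.

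The medians of the other lists, with CD153-Fc, T104 and both, were -0.045, -0.11 and -0.080 for the 31 further oxidative phosphorylation genes and -0.082, -0.15 and -0.14 for the 16 regulators. They were 0.0077, -0.086 and -0.15 for the 18 genes of pyruvate dehydrogenase and the citric acid cycle, and -0.020, 0.076 and -0.070 for the 26 import and inner membrane genes. Each call in these lists and among the ribosomal proteins passed in 1 to 7 of 8 fits without 1 array.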

How the data were processed

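The authors deposited probe intensities on a linear scale, not normalized, with a detection p-value per probe and array. They also deposited processed intensities, linear and not centred (column medians 119.685 to 119.716), used as an alternative, whose normalization the sources used here do not state. The submitters' processing notes name GenomeStudio. With limma 3.58.1 in R 4.3.3, neqc estimated background through the detection p-values and gave quantile-normalized log2 values with an offset of 16. Kept were probes detected (p under 0.01) on at least 2 of 8 arrays, 12543 in all, and the brightest per gene. A model with a mean per group, an intensity trend in eBayes and 8.78 prior beside 4 residual degrees of freedom gave 7 contrasts and an F test. Intervals are 95%. The precision is limited by 2 arrays per group.

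Platform annotation gave 28093 probes 1 symbol, 13 several and 20691 none; RefSeq genes (GRCh38.p14) changed 0. Genes named are those called, the largest rise and fall of each complex against untreated cells, its brightest and dimmest, and complex II subunits; from other lists, the largest called rises and falls. Outside this rule, and with their values seen, are COX17, COX14, ATP5PO, ATP5MC1, ATP5MC2, ATP5IF1, SDHAF1 and TMEM70. The oxidative phosphorylation genes and all lists were chosen with earlier results of these data known. Of these genes 63 had 1 kept probe and 25 had more; 16 of their 30 other probes had the T104 sign of the chosen one. Scripts were tested on simulated data.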

Additional observations from a re-analysis of the deposited data

How the results depend on the processing

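Results were recomputed under 9 other processing settings and with each array left out, and none changed the sign of a call. No value was given by the 2 groups alone for the F test and the interaction, or by detection on all 8 arrays for COX20, NDUFB1, NDUFS1 and PDP1. The medians do not depend on the trend or the block and were not refitted there. The number of oxidative phosphorylation genes called with T104 was 1 in place of 2 with median scaling, with no filter on low probes, without the intensity trend and with the replicate block, and 0 with the 2 groups compared alone, where fewer degrees of freedom remain. With CD153-Fc it was 1 in place of 0 with median scaling. With both it was 0 in place of 1 with the mean over the probes of a gene and with the 2 groups alone. T104 minus CD153-Fc gave 1 in place of 0 with the 2 groups alone, and the F test gave 0 in place of 1 with the mean over probes. The median difference was -0.075 with T104 with the mean over probes, and with both it was 0.055 with median scaling and -0.019 with the mean over probes. The cause of these shifts was not tested.

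With 1 array left out, the counts ran from 0 to 26 with CD153-Fc, 0 to 22 with T104, 0 to 22 with both, 0 to 1 for T104 minus CD153-Fc, 0 to 1 for both minus T104, 0 to 22 for the F test and 0 to 19 for the interaction, and stayed at 0 for both minus CD153-Fc. The highest of these against untreated cells came without untreated replicate 2. Medians ran from -0.032 to 0.032 with CD153-Fc, -0.072 to 0.025 with T104, -0.020 to 0.023 with both, and -0.050 to -0.0049 for T104 minus CD153-Fc. Same-numbered replicates did not deviate together (correlations of their deviations -0.099 to 0.0072), so no effect shared by replicate number was visible. The labels do not say whether same-numbered samples were handled together. Limits are 2 arrays per group, untreated duplicates that differ more than the spread shared by the model, 1 cell line, and probes that differ in value for 1 gene.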
